A study of Mus musculus with 24 samples.

Results

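*Tiam1*, *Tiam2* and 7 further genes of Rac and actin signalling (*Kalrn*, *Trio*, *Rac1*, *Pak1*, *Pak3*, *Limk1* and *Cfl1*) were followed by RNA-Seq in the hippocampus (HIP) and entorhinal cortex (EC) of Ts65Dn mice. They were chosen by their place in the pathway, with earlier results of these data known. They are 9 of the 55385 genes in the count table, and all 9 passed the filter on low counts in every comparison. The 24 libraries came from 6 male Ts65Dn mice and 6 male wild-type (wt) littermates aged 5 to 6 months, all on the mixed B6C3B background, with 1 HIP and 1 EC library from each mouse. Ts65Dn is a mouse model of Down syndrome that carries a freely segregating minichromosome, made of the distal Mmu16 segment homologous to Hsa21 joined to the centromeric Mmu17 segment from *Pisd-ps2* to *Pde10a*, which has no homology to Hsa21. Genes in either segment are therefore present in 3 copies in Ts65Dn and in 2 copies in wt. The samples were pieces of whole tissue, so fewer cells of a type and less RNA per cell cannot be told apart.

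Rac1 is a small GTPase that switches between an inactive GDP-bound and an active GTP-bound form, and guanine nucleotide exchange factors (GEFs) load it with GTP. Tiam1 and Tiam2 are Rac GEFs of 1 family; Tiam1 links NMDA and EphB receptors to the growth of dendritic spines, and Kalrn and Trio are larger GEFs with more than a single exchange domain. Active Rac1 and its relative Cdc42 switch on the p21-activated kinases, of which Pak1 and Pak3 are the main neuronal forms, and these activate Limk1. Limk1 phosphorylates cofilin (*Cfl1*), a protein that severs actin filaments, and so holds it inactive.

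*Tiam1* and *Tiam2* were the only members in 3 copies, and they lie in different segments of the minichromosome. *Tiam1* (ENSMUSG00000002489; GRCm38, GENCODE vM21, chromosome 16, 89787111 to 90143769, minus strand) lies in the Mmu16 segment, which runs from *Mrpl39* at 84717576 to the last gene ending at 98082450. *Tiam2* (ENSMUSG00000023800; chromosome 17, 3326573 to 3531344, plus strand) lies in the Mmu17 segment, from 3076578 to 8986648. *Kalrn* also lies on chromosome 16 (33969073 to 34573532), but 50144044 bases before the triplicated segment. *Trio* is on chromosome 15 (27730651 to 28025848), *Rac1* on chromosome 5 (143503634 to 143528036), *Pak1* on chromosome 7 (97788541 to 97912381), *Pak3* on chromosome X (143518591 to 143797796), *Limk1* on chromosome 5 (134656039 to 134688598) and *Cfl1* on chromosome 19 (5490455 to 5495201). Exons of *Rac1* share 2309 bases, 51.4% of its exon length, with *Daglb* on the opposite strand, those of *Cfl1* share 468 bases (16.5%) with *Snx32*, and those of *Tiam2* share 142 bases (1.11%) with *Tfb1m*. The kit marked strand, but the strand setting of the counting is not given in the sources used here, so reads of these pairs may not be fully separated. *Daglb* did not pass the test between genotypes, at log2 fold changes of 0.04 for the EC (adjusted p = 0.716) and 0.08 for the HIP (adjusted p = 0.636). *Snx32* was called higher in the Ts65Dn EC, at 0.33 (adjusted p = 0.0320), and was at 0.14 in the HIP (adjusted p = 0.463). *Tfb1m*, which lies in the Mmu17 segment like *Tiam2*, was called higher in the Ts65Dn HIP, at 0.62 (adjusted p = 0.0299), and was at 0.49 in the EC (adjusted p = 0.0552). Its means were 4.40 CPM in the wt HIP and 6.76 CPM in the Ts65Dn HIP. The part of these genes in the values of *Cfl1* and *Tiam2* was not tested.

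Between 23128589 and 40476492 reads were counted on genes per library, and each member had at least 822 counts in every library. Over the 81 tested protein-coding genes of the Mmu16 segment, the median fold over the wt mean was 1.02 in the HIP library labelled Ts65Dn replicate 3 and 1.43 to 1.53 in the other 5 Ts65Dn libraries. Over the 79 tested in the EC, it was 1.01 in that mouse and 1.46 to 1.51 in the other 5. Over the 29 Mmu17 genes, that mouse was at 0.98 in either region. The triplicated genes of the library labelled Ts65Dn replicate 3 were thus at the wt level in both regions. It kept its label, and the comparisons that include it were also fitted without it. *Tiam1* and *Tiam2* were among the genes over which these medians were taken. Replicate 3 was also the lowest Ts65Dn library for both genes in both regions. Leaving it out therefore raises their fold changes by the choice itself, and the fits without it are not separate support for a rise.

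The levels of the members per length, in read counts scaled to the library total and to exon length (RPKM), differed from each other by over an order of magnitude in wt. In the wt HIP the highest mean was that of *Cfl1* (149 ± 4.62 RPKM; SD, n=6 here and for all group means), followed by *Pak1* (92.7 ± 13.6), *Rac1* (41.8 ± 1.80), *Kalrn* (30.4 ± 1.80), *Pak3* (18.6 ± 0.91), *Tiam1* (13.8 ± 0.57), *Trio* (8.94 ± 0.54), *Limk1* (5.26 ± 0.79) and *Tiam2* (3.31 ± 0.36). No neighbours in that order overlapped in their ranges. In the wt EC *Pak1* (188 ± 6.18 RPKM) and *Cfl1* (182 ± 8.51) overlapped at the top, *Rac1* (44.7 ± 2.07) stood alone, *Kalrn* (26.4 ± 2.46) overlapped *Pak3* (21.5 ± 1.86), *Tiam1* (12.2 ± 1.51) stood alone, *Trio* (7.83 ± 0.49) overlapped *Limk1* (7.46 ± 0.67), and *Tiam2* (5.22 ± 0.39) was again last. In Ts65Dn, *Tiam1* was at 18.6 ± 2.99 RPKM in the HIP and 18.8 ± 4.73 in the EC. Its range overlapped that of *Pak3* in both regions, which it did not in wt. Without replicate 3, *Tiam1* (19.6 ± 2.03 RPKM; n=5) lay above *Pak3* (17.3 ± 0.31) with no overlap in the Ts65Dn HIP, and in the EC *Tiam1* (20.3 ± 3.28) still overlapped *Pak3* (20.1 ± 1.41). *Tiam2* was at 8.68 ± 2.19 RPKM in the Ts65Dn EC, where it overlapped *Trio* and *Limk1*, which it did not in wt, and it overlapped both without replicate 3 as well (9.46 ± 1.19). These lengths are the union of all annotated exons, which lowers the RPKM of genes with many isoforms such as *Kalrn* and *Trio*. For *Tiam2* the union was 12741 bases against 6127 in its longest transcript, and for *Limk1* 7162 against 3473. The order and the overlaps between genes thus depend on the length used, and no other length was tried. All levels below are counts scaled to the library total (CPM) with TMM scaling factors, and compare 1 gene between groups.

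Both Tiam genes were higher in Ts65Dn than in wt in the HIP. *Tiam1* ranged from 133 to 149 CPM in wt (median 138) and from 138 to 229 CPM in Ts65Dn (median 185). The Ts65Dn minimum was the library labelled replicate 3, level with the wt mean, and the other 5 mice lay above all 6 wt mice, at 1.30 to 1.65 of that mean. The log2 fold change of *Tiam1* was 0.43 (SE 0.09, edgeR adjusted p = 0.0367), a fold change of 1.35 with a 95% interval of 1.18 to 1.54. *Tiam2* ranged from 36.2 to 47.0 CPM in wt (median 43.1) and from 41.1 to 71.4 CPM in Ts65Dn (median 64.5). Again 5 of the 6 Ts65Dn mice lay above every wt mouse, at 1.38 to 1.69 of the wt mean, and replicate 3 was at 0.98. Its log2 fold change was 0.54 (SE 0.12, adjusted p = 0.0422), a fold change of 1.45 (1.22 to 1.73). These were the 2 members called of 9, against 1.04% of the 17355 genes tested in the HIP (0.542% called higher), and neither group pair was free of overlap, against 1.67% of all genes.

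Without the library labelled Ts65Dn replicate 3, the HIP groups did not overlap for either gene, against 3.54% of all genes. For both genes it was the only Ts65Dn library that did not lie above all wt libraries. Its removal thus fixed this outcome in advance, and the share over all genes is no like measure. *Tiam1* then stood at 197 ± 20.4 CPM in 5 Ts65Dn mice against 138 ± 5.76 in wt, a log2 fold change of 0.50 (SE 0.06, adjusted p = 0.0006). *Tiam2* stood at 65.5 ± 5.49 CPM against 42.2 ± 4.53, a log2 fold change of 0.63 (SE 0.08, adjusted p = 0.0006). Both were called, against 1.82% of the genes tested without it. With all 12 mice both HIP calls were close to the threshold: leaving out any 1 of the other 11 mice ended them, with adjusted p between 0.0520 and 0.0891 for *Tiam1* and between 0.0553 and 0.108 for *Tiam2*, at log2 fold changes of at least 0.37 and 0.49.

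In the EC both genes were higher in Ts65Dn as well. *Tiam1* ranged from 99.4 to 139 CPM in wt (median 125) and from 113 to 248 CPM in Ts65Dn (median 185). The 5 mice other than replicate 3 lay above all wt mice, at 1.42 to 2.02 of the wt mean, and replicate 3 was at 0.92. The log2 fold change was 0.61 (SE 0.15, adjusted p = 0.0455), a fold change of 1.53 (1.23 to 1.91). *Tiam2* ranged from 58.3 to 71.9 CPM in wt (median 67.3) and from 60.9 to 138 CPM in Ts65Dn (median 116), with 5 mice at 1.51 to 2.08 of the wt mean and replicate 3 at 0.91. Its log2 fold change was 0.72 (SE 0.15, adjusted p = 0.0233), a fold change of 1.65 (1.33 to 2.06). The 2 genes were again the members called of 9, against 2.50% of the 17049 genes tested in the EC (1.15% called higher), and both overlapped wt, where 2.46% of all genes did not. The mice that were highest for *Tiam1* in the EC, replicates 4 and 2 at 2.02 and 1.86 of the wt mean, were also the highest for *Tiam2*, at 1.99 and 2.08.

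**Figure D1:**
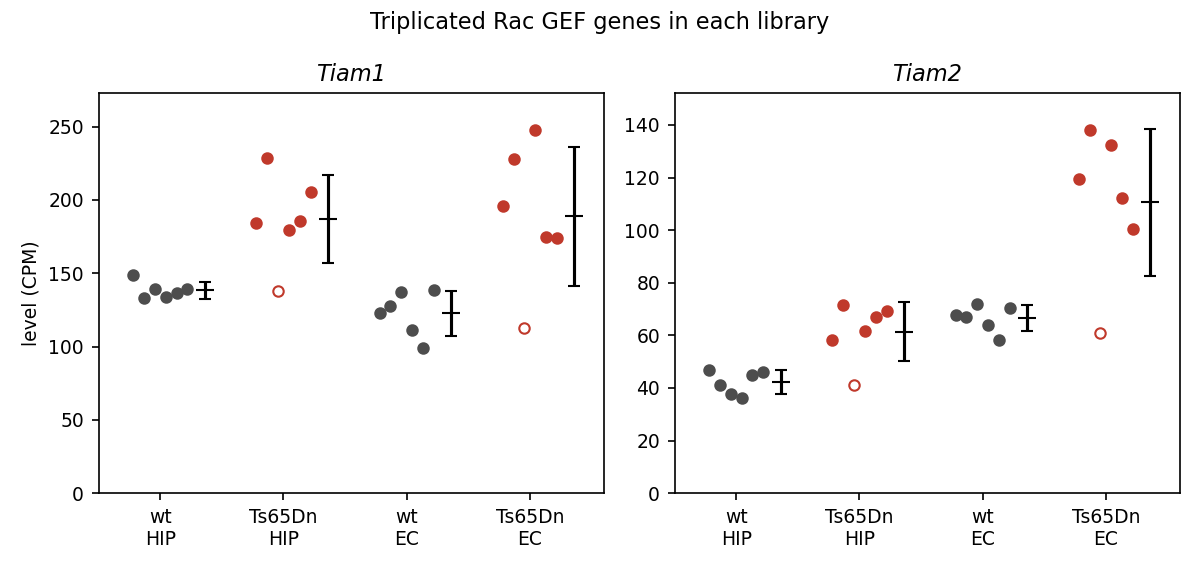
Levels of Tiam1 and Tiam2 in CPM (vertical axes) in the 6 libraries of each group (points), with the group mean and SD beside them (bars). The open point is the library labelled Ts65Dn replicate 3, which lies among the wt libraries, while the other 5 Ts65Dn libraries lie above all 6 wt libraries in both regions.

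Without replicate 3 the EC groups did not overlap, against 4.07% of all genes. As in the HIP, this outcome was fixed in advance by the removal of that library. *Tiam1* stood at 204 ± 33.0 CPM in Ts65Dn against 123 ± 15.2 in wt, a log2 fold change of 0.73 (SE 0.10, adjusted p = 0.0019), and *Tiam2* at 120 ± 15.2 CPM against 66.6 ± 4.91, a log2 fold change of 0.85 (SE 0.08, adjusted p = 0.0001). Both were called, against 2.79% of the genes tested. With all 12 mice the EC call of *Tiam1* held without replicate 3 or without Ts65Dn replicate 6, and ended without any of the other 10 mice (adjusted p between 0.0545 and 0.105). That of *Tiam2* ended without wt replicate 4 or 5 or Ts65Dn replicate 1, 2 or 4 (0.0529 to 0.0606) and held without the others.

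The extra copy sets a reference of 1.5-fold, or 0.58 on the log2 scale. With all mice this value lay inside the 95% interval of both genes in both regions. Without replicate 3 it lay inside the interval of *Tiam1* in the HIP (fold 1.42, 1.29 to 1.55), of *Tiam2* in the HIP (1.55, 1.38 to 1.74) and of *Tiam1* in the EC (1.65, 1.42 to 1.93). For *Tiam2* in the EC the interval lay above it (1.80, 1.60 to 2.03), while with all mice it ran from 1.33 to 2.06. Replicate 3 was singled out by genes that include *Tiam2*, so the narrower interval cannot show whether its fold exceeds 1.5. Among the 79 tested protein-coding genes of the Mmu16 segment in the EC, of which 44 were called higher and 0 lower, *Tiam1* ranked 12 from the highest log2 fold change, and the median was 0.51. In the HIP, where 42 of the 81 tested were called higher and 0 lower, *Tiam1* ranked 60, with a median of 0.50. *Tiam2* ranked 6 of 29 Mmu17 genes in the EC (median 0.52) and 10 of 29 in the HIP (median 0.49). Of these 29, 13 were called higher in the EC and 11 in the HIP, and 0 were called lower. The ranks without replicate 3 were 11 of 80 and 58 of 82 for *Tiam1* and 4 and 11 of 29 for *Tiam2*, EC first.

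The difference of the Ts65Dn effect between regions, EC minus HIP, was 0.17 on the log2 scale for *Tiam1* (95% interval -0.08 to 0.41, unadjusted p = 0.166) and 0.16 for *Tiam2* (-0.08 to 0.40, unadjusted p = 0.170) in the edgeR fit across all genes. Without replicate 3 it was 0.22 (-0.02 to 0.47) and 0.21 (-0.03 to 0.45). None of the 18109 genes passed this test (0.00% called, and 742, or 4.10%, at an unadjusted p under 0.05). The test compares the log2 fold change of a gene between regions. The higher rank of both genes in the EC was not tested.

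**Figure D2:**
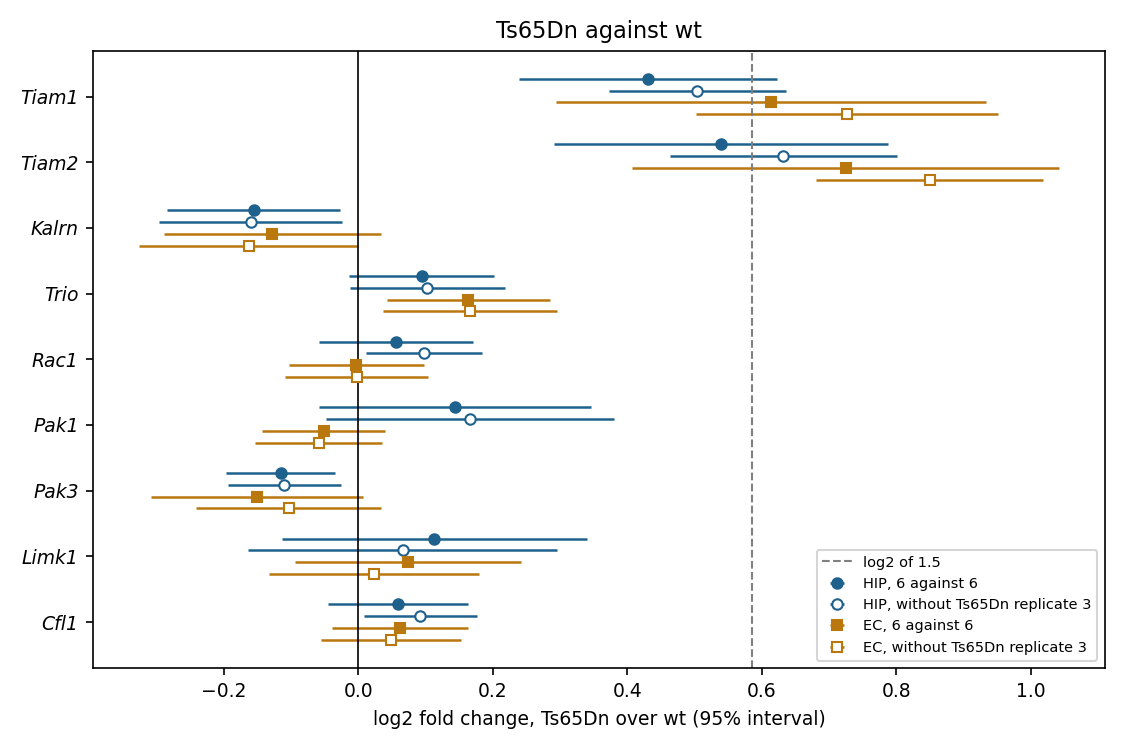
Log2 fold change of Ts65Dn over wt (horizontal axis) with its 95% interval for the 9 members in the HIP (circles) and EC (squares), with all mice (filled) and without the library labelled Ts65Dn replicate 3 (open). The dashed line is 0.58, the log2 of 1.5. The intervals of Tiam1 and Tiam2 lie above 0. That of Tiam2 in the EC spans the dashed line with all mice and lies above it without replicate 3, which was singled out by genes that include Tiam2.

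Across the 24 libraries, after the mean of each region was subtracted, the gene most like *Tiam1* among 16591 was *Tiam2* (Pearson r = 0.966 of log2 CPM), although they lie on different chromosomes in wt. The next were *Hlcs* (0.917), *Mis18a* (0.905), *Dennd2a* (0.901) and *Wrb* (0.898). For *Tiam2* they were *Tiam1* (0.966), *Jam2* (0.944), *Wrb* (0.935), *Vps26c* (0.935) and *Ifnar1* (0.932). All of these except *Dennd2a*, on chromosome 6, lie in the triplicated segments, and these r values contain the difference between genotypes and the HIP and EC library of the same mice. Within groups the relation was also seen: with group means subtracted, r between *Tiam1* and *Tiam2* was 0.680 over the 12 wt libraries and 0.870 over 10 Ts65Dn libraries without replicate 3. Over these 22 libraries together it was 0.784, which placed *Tiam2* at rank 8 of 16591 genes for *Tiam1*, and *Tiam1* at rank 2 for *Tiam2*. The 12, 10 and 22 libraries also hold the HIP and EC library of the same mice, so they are not independent. In the same 22 libraries the other member pairs with the highest r were *Kalrn* with *Trio* (0.693) and *Pak1* with *Limk1* (0.686). The lowest was *Rac1* with *Pak3* (-0.51), and *Tiam1* with *Rac1* was at 0.107.

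None of the 7 members in 2 copies passed the test between genotypes in either region, with or without replicate 3. Of the GEFs, the mean of *Kalrn* was lower and that of *Trio* higher in Ts65Dn. *Kalrn* ranged from 672 to 776 CPM in wt (HIP, median 737) and from 564 to 706 CPM in Ts65Dn (HIP, median 667), with 4 Ts65Dn mice below all wt mice. Its log2 fold change was -0.16 (SE 0.06, adjusted p = 0.250, unadjusted p = 0.0215), and in the EC -0.13 (SE 0.08, adjusted p = 0.389), where it ranged from 544 to 708 CPM in wt and from 508 to 661 CPM in Ts65Dn. The upper ends of its 95% intervals were 0.98-fold in the HIP and 1.02-fold in the EC, so a rise of 1.5-fold lay outside both for this chromosome 16 gene beyond the triplicated segment. *Trio* ranged from 163 to 194 CPM in the wt EC (median 186) and from 190.1 to 236 CPM in the Ts65Dn EC (median 203), with 5 of 6 Ts65Dn mice above all wt mice. The log2 fold change of *Trio* was 0.16 (SE 0.06, adjusted p = 0.132, unadjusted p = 0.0113) in the EC and 0.09 (SE 0.05, adjusted p = 0.413) in the HIP.

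*Rac1*, the GTPase itself, stood at 188 ± 8.11 CPM in the wt HIP and 196 ± 15.5 in the Ts65Dn HIP, and at 201 ± 9.30 and 202 ± 10.2 CPM in the EC. Its log2 fold changes were 0.06 (adjusted p = 0.673) and 0.00 (adjusted p = 0.983), and the 95% intervals ran from 0.96-fold to 1.13-fold in the HIP and from 0.93-fold to 1.07-fold in the EC. Of the kinases, *Pak1* stood at 366 ± 53.5 CPM in wt and 405 ± 38.1 in Ts65Dn in the HIP (log2 fold change 0.14, adjusted p = 0.515), and at 742 ± 24.4 and 721 ± 33.1 CPM in the EC (-0.05, adjusted p = 0.564). *Pak3*, mutated in X-linked intellectual disability in humans, was at 178 ± 8.68 CPM in wt and 165 ± 3.22 in Ts65Dn in the HIP (-0.11, adjusted p = 0.166, unadjusted p = 0.0088). In the EC *Pak3* was at 205 ± 17.8 and 186 ± 19.0 CPM (-0.15, adjusted p = 0.286). *Limk1* stood at 37.7 ± 5.63 CPM in wt and 40.9 ± 5.02 in Ts65Dn in the HIP (0.11, adjusted p = 0.667), and at 53.5 ± 4.83 and 56.7 ± 6.87 CPM in the EC (0.07, adjusted p = 0.665). *Cfl1* stood at 425 ± 13.1 and 444 ± 30.6 CPM in the HIP (0.06, adjusted p = 0.611) and at 516 ± 24.2 and 542 ± 29.4 CPM in the EC (0.06, adjusted p = 0.521). Over the 7 genes and both regions the 95% intervals reached from 0.81-fold to 1.27-fold, and an unadjusted p under 0.05 was found for 2 genes in the HIP (14.8% of all genes) and for 1 in the EC (19.0%). Without replicate 3 an unadjusted p under 0.05 was found for 4 genes in the HIP (2966 of all 17452 genes), namely *Kalrn* (log2 fold change -0.16), *Pak3* (-0.11), *Rac1* (0.10) and *Cfl1* (0.09), and for 2 in the EC (3282 of 17229), *Kalrn* (-0.16) and *Trio* (0.17). The other log2 fold changes without it lay at 0.10 for *Trio*, 0.17 for *Pak1* and 0.07 for *Limk1* in the HIP, and at 0.00 for *Rac1*, -0.06 for *Pak1*, -0.10 for *Pak3*, 0.02 for *Limk1* and 0.05 for *Cfl1* in the EC. The 95% intervals then reached from 0.80-fold to 1.30-fold. Without replicate 3, the *Cfl1* ranges of the HIP groups did not overlap (442 to 486 CPM in 5 mice, 406 to 440.2 CPM in wt), where 3.54% of all genes did not. Its log2 fold change was then 0.09 (adjusted p = 0.251).

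**Figure D3:**
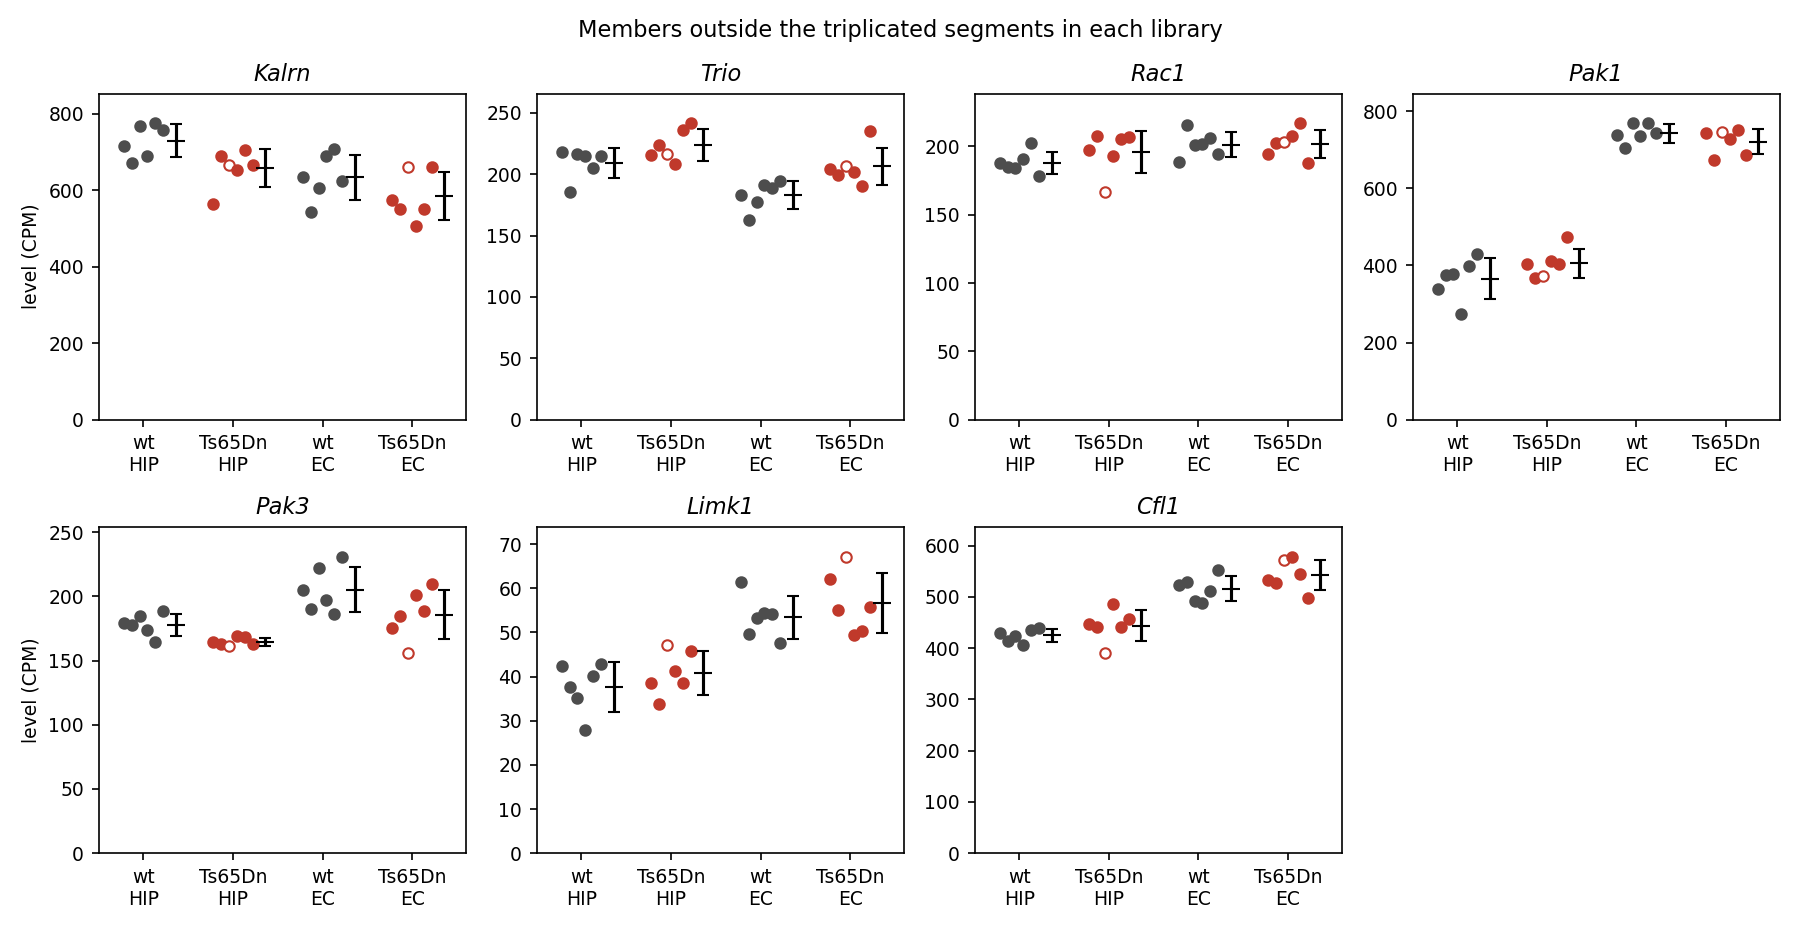
Levels in CPM (vertical axes) of the 7 members in 2 copies in the 6 libraries of each group (points), with the group mean and SD beside them (bars); the open point is the library labelled Ts65Dn replicate 3. The wt and Ts65Dn libraries overlap in every panel and region, while Pak1 in the EC lies above all HIP libraries.

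The trend of the values with the GC content of genes differed in median between the wt and Ts65Dn libraries, a difference that was not tested. The Spearman correlation, across genes within 1 library, of GC content with the deviation from the region mean had a median of -0.16 over the wt and 0.180 over the Ts65Dn HIP libraries, and of -0.21 and 0.143 in the EC, with overlapping ranges. The highest value, 0.441, was that of the EC library labelled Ts65Dn replicate 3. Genes are not independent replicates, and the part of the GC trend in the results was not tested other than by removing it. *Limk1* had the highest GC content among the members (57.6% of its longest transcript) and *Pak3* the lowest (39.0%), with *Tiam1* at 52.2% and *Tiam2* at 50.7%. When the trend with GC content and exon length was removed, the log2 fold change of *Pak3* was 0.00 for the HIP and -0.01 for the EC, that of *Limk1* was 0.03 and -0.03, that of *Trio* 0.05 and 0.11, and that of *Cfl1* 0.02 and 0.01. *Kalrn* was then at -0.13 and -0.08, *Pak1* at 0.15 and -0.05 and *Rac1* at 0.05 and -0.01, each within 0.05 of its value before. Those of *Tiam1* were 0.39 (adjusted p = 0.105) and 0.56 (0.0969), and those of *Tiam2* 0.51 (0.112) and 0.68 (0.0432). With the trend removed and replicate 3 left out, *Tiam1* was called at 0.47 in the HIP (adjusted p = 0.0006) and 0.67 in the EC (0.0027), and *Tiam2* at 0.61 (0.0014) and 0.80 (0.0001). *Cfl1* was then at 0.06 in the HIP (adjusted p = 0.652).

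Between regions, the members fell into those higher in the EC and those higher in the HIP. The HIP and EC libraries of the same mouse were compared, with a term for each mouse. In wt all 9 members passed the test, against 61.3% of the 17196 genes tested, and for each of them all 6 mice had the same direction. *Pak1* had the largest difference of the members, from 274 to 429 CPM in the HIP of wt mice (median 377) and 703 to 769 CPM in their EC (median 739.6), with no overlap and a log2 fold change, HIP over EC, of -1.04 (SE 0.07, adjusted p = 7.4e-07). *Tiam2* followed at -0.67 (SE 0.07, adjusted p = 1.1e-05), then *Limk1* at -0.52 (SE 0.08), *Cfl1* at -0.28 (SE 0.03), *Pak3* at -0.21 (SE 0.03) and *Rac1* at -0.10 (SE 0.04, adjusted p = 0.0322). The GEFs *Kalrn* (0.20, SE 0.05, adjusted p = 0.0038), *Trio* (0.19, SE 0.03, adjusted p = 0.0007) and *Tiam1* (0.18, SE 0.06, adjusted p = 0.0246) were higher in the HIP. The Tiam genes thus differed from each other in the direction of their regional difference. The *Tiam1* call ended without wt replicate 1, 4 or 5 (adjusted p between 0.0529 and 0.0673), and the *Rac1* call without wt replicate 2, 3, 4 or 6 (0.0514 to 0.0852).

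In Ts65Dn, 5 of the 9 members passed the test, against 52.3% of 17314 genes. *Pak1* (-0.84, SE 0.06), *Tiam2* (-0.83, SE 0.08), *Limk1* (-0.48, SE 0.07) and *Cfl1* (-0.29, SE 0.06) were higher in the EC in 6 of 6 mice, and *Pak3* (-0.17, SE 0.06, adjusted p = 0.0261) in 5 of 6. Without replicate 3 these were at -0.81, -0.88, -0.47, -0.24 and -0.21 in the same order, all called, against 47.9% of the 17344 genes tested. Their ranges then did not overlap between regions, and the share of all genes with no overlap between regions was not counted. The *Pak3* call ended without Ts65Dn replicate 2, 4, 5 or 6 (adjusted p between 0.0546 and 0.0769). *Tiam1* differed by 0.01 (95% interval -0.19 to 0.20, adjusted p = 0.945), with 4 mice higher in the HIP and the other 2 higher in the EC, and by -0.05 without replicate 3. *Kalrn* (0.17, adjusted p = 0.0690), *Trio* (0.11, adjusted p = 0.0851) and *Rac1* (-0.05, adjusted p = 0.484) also did not pass. *Kalrn* passed when Ts65Dn replicate 1, 3 or 6 was left out (adjusted p between 0.0400 and 0.0484). The difference between genotypes in the regional difference is the interaction given above for *Tiam1*, which was not called, and the other members' interactions lay between -0.20 for *Pak1* (95% interval -0.41 to 0.01, unadjusted p = 0.0615) and 0.16 for *Tiam2*. Without replicate 3 the interaction of *Pak1* was -0.23 (-0.45 to -0.01, unadjusted p = 0.0380, adjusted p = 0.763).

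**Figure D4:**
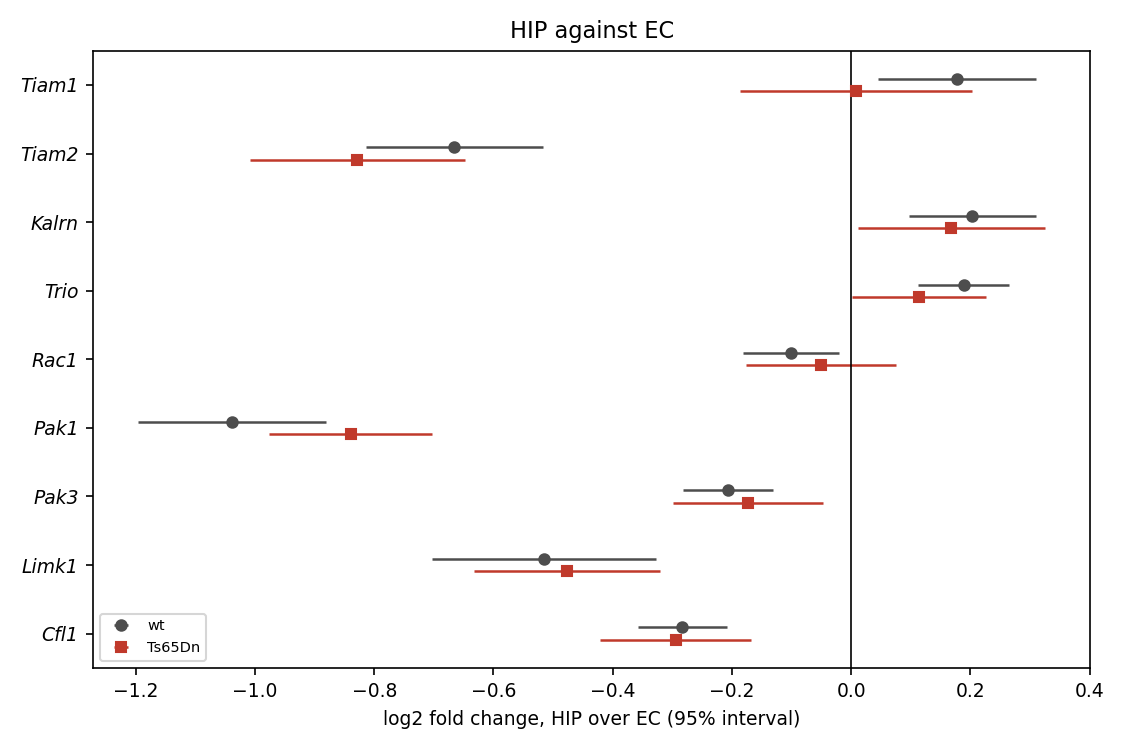
Log2 fold change of HIP over EC (horizontal axis) with its 95% interval for the 9 members in wt (circles) and Ts65Dn (squares), 6 mice each. Pak1, Tiam2, Limk1, Cfl1 and Pak3 lie below 0 in both genotypes, and Tiam1, Kalrn and Trio lie above 0 in wt.

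Beyond the 9 members, 107 other genes of the pathway were described in 7 groups, and all of them were tested. In the HIP 1 was called higher in Ts65Dn (0.542% of all genes) and 0 lower (0.501%), with a median log2 fold change of 0.01 against 0.00 over all genes. In the EC 1 was higher (1.15% of all genes) and 2 were lower (1.35%), also with a median of 0.01. *Itsn1*, an endocytic scaffold and Cdc42 GEF, was the only listed gene in a triplicated segment, and the only 1 of 30 other Rac and Cdc42 GEFs that was called. *Itsn1* ranged from 152 to 176 CPM in the wt HIP and from 179 to 268 CPM in the Ts65Dn HIP, a log2 fold change of 0.53 (SE 0.08, adjusted p = 0.0085). In the EC it ranged from 145 to 167 CPM in wt and from 176 to 257 CPM in Ts65Dn, at 0.56 (SE 0.08, adjusted p = 0.0052), and the groups overlapped in neither region. Without replicate 3 it was at 0.60 and 0.63.

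Of 16 GTPase-activating proteins and dissociation inhibitors, *Arhgap15*, which switches Rac off, fell in the EC, from 25.9 to 30.3 CPM in wt against 21.9 to 25.6 CPM in Ts65Dn, a log2 fold change of -0.25 (SE 0.06, adjusted p = 0.0309), and was at -0.12 in the HIP (adjusted p = 0.686). With the GC and length trend removed *Arhgap15* was at 0.00 in the EC (adjusted p = 0.998). Of 23 genes of the WAVE and Arp2/3 complexes, which nucleate branched actin downstream of Rac, *Abi2*, a subunit of the WAVE complex, fell in the EC, from 326 to 349 CPM in wt against 273 to 316 CPM in Ts65Dn, a log2 fold change of -0.18 (SE 0.04, adjusted p = 0.0416), and was at -0.07 in the HIP (adjusted p = 0.617). With the trend removed *Abi2* was at -0.11 in the EC and not called (adjusted p = 0.188). Leaving out 1 mouse ended the *Arhgap15* call in 7 of 12 cases (without wt replicate 1, 4 or 5 or Ts65Dn replicate 1, 2, 4 or 5, at most 0.0745) and that of *Abi2* in 8 of 12 (without wt replicate 1, 3, 4, 5 or 6 or Ts65Dn replicate 1, 2 or 4, at most 0.0971). For these genes the difference between regions in the Ts65Dn effect was not tested by name, and 0 genes passed the interaction test given above. None of the 8 other PAKs and partners, the 14 LIMK and cofilin regulators, the 14 partners of Tiam1 or the 2 cytoplasmic actins were called in either region with edgeR and all mice, with 1, 0, 3 and 1 of them at an unadjusted p under 0.05 in the HIP and 1, 5, 1 and 1 of them in the other region. Without replicate 3, 3 more genes passed in the HIP, namely *Mapk8ip2*, a scaffold that binds Tiam1 (0.21, adjusted p = 0.0363), and the Arp2/3 subunits *Arpc4* (0.20, adjusted p = 0.0463) and *Arpc1a* (0.19, adjusted p = 0.0482), which made 4 of 107 called against 1.82% of all genes. With the trend removed as well, none of the 3 was called (adjusted p = 0.163, 0.189 and 0.187, at log2 fold changes of 0.16 for each), and 1 of 107 was.

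**Figure D5:**
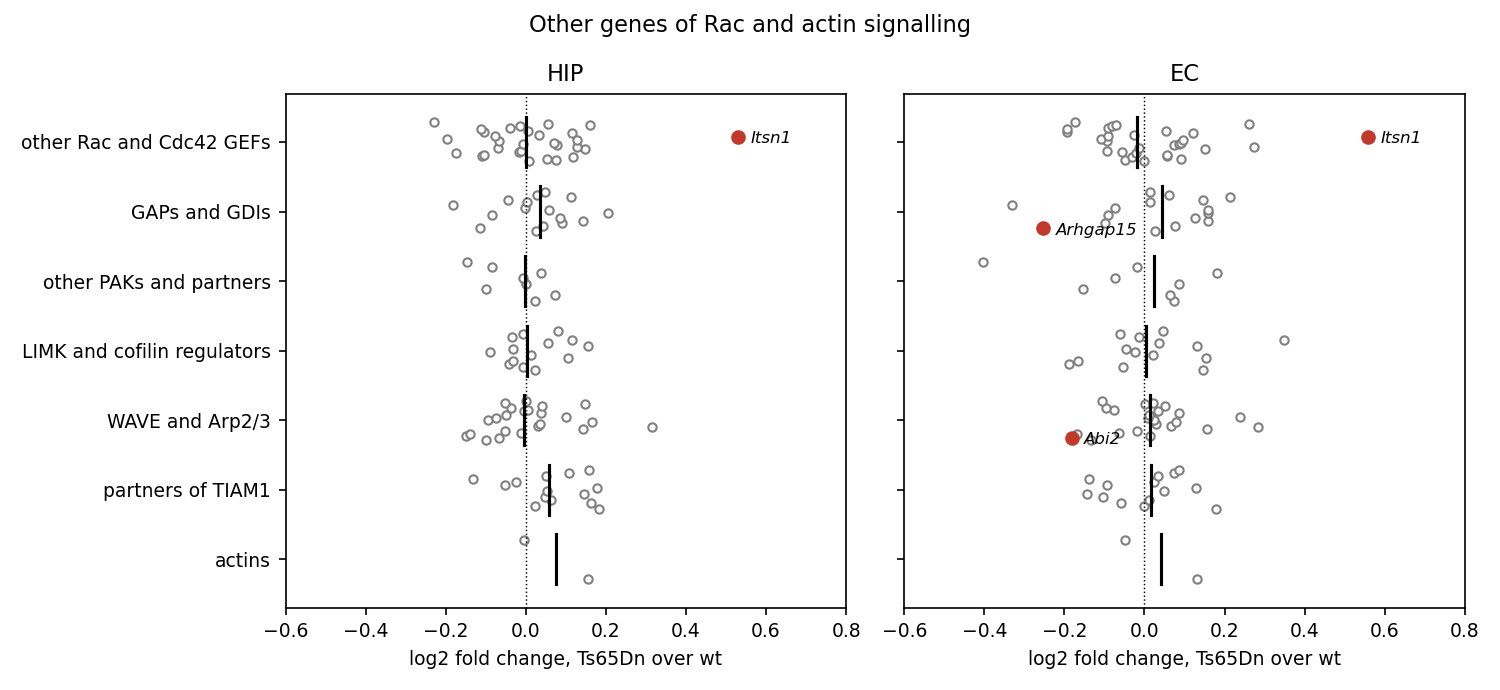
Log2 fold change of Ts65Dn over wt (horizontal axes) for the 107 other pathway genes in 7 groups (rows), in the HIP and the EC, with all mice; filled and named points passed the test (adjusted p under 0.05), open points did not, and the bars are group medians. Only Itsn1, at 0.53 and 0.56, lies beyond 0.5.

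Between regions, 45 of the 107 genes were higher in the HIP and 33 in the EC in wt, against 31.0% and 30.3% of all genes. In Ts65Dn 44 and 32 were, against 26.6% and 25.7%. The WAVE and Arp2/3 group had 14 of 23 genes higher in the HIP and 4 lower in wt, with a median log2 fold change of 0.23. The partners of Tiam1 had 3 higher and 9 lower of 14, with a median of -0.17, against a median of 0.00 over all genes.

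Most listed markers of the dentate gyrus, CA fields and cortex were higher in the labelled region. *Prox1*, of dentate granule cells, was at 106 to 176 CPM in the HIP and 10.8 to 14.7 CPM in the EC, and *Fibcd1*, of the CA1 field, at 93.7 to 177 and 9.69 to 18.3 CPM. *C1ql2*, *Dsp*, *Spink8* and *Zbtb20* also had higher medians in the HIP. *Calb1*, of the dentate list, and *Wfs1*, of the CA list, went the other way. In wt their medians were 133 and 171 CPM in the HIP and 245 and 209 CPM in the EC. Summed over 6 cortical markers, the EC libraries were at 342 to 496 CPM and the HIP libraries at 103 to 181 CPM. Of the 6, *Fezf2* was level in wt, at medians of 22.5 CPM in the HIP and 22.7 CPM in the EC, and the others had higher medians in the EC. The sum over 5 choroid plexus markers varied from 55.1 to 5095 CPM among the HIP libraries of both genotypes. In the EC, the sum over 4 astrocyte markers lay between 4668 and 5207 CPM in wt and between 3525 and 4859 CPM in Ts65Dn, where the highest value was replicate 3, with 0 of the 4 genes called with all mice. The sum over 4 dentate markers lay between 237 and 275 CPM in the wt EC and between 203 and 226 CPM in the Ts65Dn EC, where *Calb1*, which cortical interneurons also express, made up most of it. *Calb1* was called lower in the Ts65Dn EC, at -0.31 (adjusted p = 0.0092), as the only 1 of the 4. Of 4 microglial markers *P2ry12* was called lower in Ts65Dn, at -0.27 in the HIP (adjusted p = 0.0422) and -0.45 in the EC (adjusted p = 0.0226), while the sum over the 4 overlapped between genotypes. Of 6 striatal markers *Drd2* was called higher in the Ts65Dn EC, at 1.56 (adjusted p = 0.0254), with medians of 1.21 CPM in wt and 3.66 CPM in Ts65Dn. The sum over the 6 lay between 172 and 200.2 CPM in the wt EC and between 161 and 243 CPM in the Ts65Dn EC. These 4 calls held without replicate 3, and *Rorb*, a cortical marker (-0.46, adjusted p = 0.0422), and *Slc1a2*, an astrocyte marker (-0.28, adjusted p = 0.0409), were then also called lower in the EC. The part of these differences in the values of the members was not tested.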

How the data were processed

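Gene counts of the HIP and EC of 6 Ts65Dn and 6 wt mice were analysed, with groups taken from the labels. The authors aligned single-end reads to GRCm38 (mm10 in the submitters' processing notes, which also name bcl2fastq 2.17.1.14 and DESeq2) with Hisat2 and deposited raw counts from HTSeq-count, not normalized. The methods name polyA RNA as well as a kit that depletes ribosomal RNA, and the labels a stranded mRNA kit. Tables of the authors' comparisons (means, log2 fold changes, p-values) were not used. Of 55385 gene identifiers, 99.6% were in GENCODE vM21.

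The main test was edgeR's quasi-likelihood test (edgeR 4.0.16, R 4.3.3) with filterByExpr, TMM and Benjamini-Hochberg adjustment over all genes tested at 0.05, on 6 against 6 libraries within each region. The regional comparisons and the interaction had a term for each mouse, since the deviations of the HIP and EC libraries of 1 mouse correlated at 0.226 to 0.486 and every library correlated best with its own mouse. All p-values in the text come from these fits or from the alternatives named beside them. CPM used TMM scaling over 24 libraries, and log2 CPM a prior count of 2. The trend with exon length and GC content was removed with splines of 5 degrees of freedom. No pair of libraries was identical, and at least 34.4% of genes differed beyond counting error in each pair of replicates. Alternatives tried were no filter, at least 10 counts in every library, DESeq2 1.42.0, its size factors in edgeR, a replicate block, the trend removed, and each mouse left out. The fits without the trend and without the library labelled Ts65Dn replicate 3 together, and the within-group correlations, were added with the data seen. The fits were also run on simulated counts with known changes of 1.5-fold. The simulated libraries were drawn independently, without a mouse effect, so this check did not cover the pairing of libraries from the same mouse.

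The members and the lists were chosen with earlier results of these data known. All 9 members are named, with each listed gene called in either region, at most 4 per list and region, and each listed gene of the triplicated segments. *Mapk8ip2*, *Arpc4* and *Arpc1a* were named after their values were seen, as were the genes on the strand opposite to a member. The 5 genes most like each Tiam gene were taken by Pearson r. Pak5 was found under its older symbol *Pak7*. A further list of pathway genes is not reported here.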

Additional observations from a re-analysis of the deposited data

Results flagged for a closer look

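Of the 36 groups of 6 libraries searched, 1 for each member in each group, 2 held a library far from the other 5, where chance marks about 1 in 20 groups. *Trio* in the EC of Ts65Dn replicate 6 was at 236 CPM, above the other 5 Ts65Dn mice at 190.1 to 207 CPM. *Rac1* in the HIP library labelled Ts65Dn replicate 3 was at 167 CPM, below the other 5 at 193 to 207 CPM.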

How the results depend on the processing

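The rises of *Tiam1* and *Tiam2* kept their direction under every alternative run, and all 4 calls held with DESeq2. With the replicate number as a block, a number that pairs no mice here, the calls ended at log2 fold changes of 0.42 (*Tiam1*, HIP; adjusted p = 0.122), 0.53 (*Tiam2*, HIP; 0.0746), 0.58 (*Tiam1*, EC; 0.125) and 0.68 (*Tiam2*, EC; 0.0869), and 36 genes were called in the EC and 29 in the HIP, with 1 and 0 of the listed pathway genes. Mice of the same number deviated together at r of -0.19 to 0.135 (HIP) and -0.10 to 0.164 (EC), and 0 and 1 of 6 correlated best with their own number. With the GC and length trend removed, *Tiam1* (0.39 in the HIP, 0.56 in the EC) and *Tiam2* in the HIP (0.51) were not called, and 59 and 130 genes were called, with 1 listed gene in the EC, also when replicate 3 was left out. The cause was not tested. The block changed no other member's call between genotypes. Without the term for each mouse, the regional differences in wt of *Tiam1* (0.17, adjusted p = 0.0542) and *Rac1* (-0.10, 0.0511) were not called, and that of *Tiam1* in Ts65Dn was -0.018.

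Leaving out 1 mouse gave 0.37 to 0.50 for *Tiam1* and 0.49 to 0.63 for *Tiam2* (HIP), and 0.52 to 0.73 and 0.65 to 0.85 (EC). It gave 90 to 685 called genes (EC) and 54 to 318 (HIP), against 426 and 181 with all mice, and 1 to 5 and 1 to 4 listed pathway genes, against 3 and 1. DESeq2 called 1141 and 662 genes, with 13 and 3 of the listed genes, and without a filter 275 genes were called in the EC, 1 listed gene in the EC, and 37 genes in the interaction, against 0. Values near 0 changed sign. With the trend removed *Limk1* was at -0.029 in the EC and *Arhgap15* at 0.063 (HIP) and 0.0015 (EC). With the trend removed and replicate 3 left out, *Limk1* was at -0.0030 (HIP) and -0.074 (EC), *Pak3* at 0.020 and 0.0057, and *Abi2* (0.037) and *Arhgap15* (0.16) in the HIP and *Arpc4* (-0.0030) in the EC also turned. Over the left-out mice, *Rac1* in the EC ranged from -0.027 to 0.018, *Tiam1* between regions in Ts65Dn from -0.047 to 0.10, and the interactions of *Kalrn* from -0.0055 to 0.075, *Pak3* from -0.073 to 0.0088, *Limk1* from -0.11 to 0.050 and *Cfl1* from -0.041 to 0.043. With 6 mice per group, a gene that did not pass can still differ, and the strand setting, the kit and the identity of the library labelled Ts65Dn replicate 3 limit every value.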
